A study of Saccharomyces cerevisiae with 22 samples.

Results

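The genes described here are 31 targets of the transcription factors Msn2 and Msn4, the general stress genes of the budding yeast Saccharomyces cerevisiae. They form a list of named genes, set by no threshold on a measured value but with earlier results of these data in view. All 31 were found by symbol or systematic name among the 5381 genes of the deposited table. RTC3 is the gene with the systematic name YHR087W. The 22 samples make up 14 groups by strain, library type and condition. The strains are BY4741 and EY0690, the latter described in its growth protocol as w303. The control groups were growing in synthetic complete medium with glucose at 30 °C, to an OD600 of 0.3 to 0.4, and the starved groups had then spent 15 min in the same medium lacking glucose. Control and starved cells alike were given cycloheximide, which stalls elongating ribosomes, at 100 ug/ml for 1 min before harvest. For each strain and condition there were 2 libraries of ribosome footprints (the mRNA pieces that ribosomes protect from RNase I) and 2 of polyA-selected RNA. BY4741 total RNA has 1 library per condition, and the EY0690 total and RiboZero-depleted RNA are held as 1 column per condition, pooled by the authors. The labels do not say that libraries with different numbers came from separate cultures, so the p-values measure the spread between these libraries, which may be partly technical. The libraries were made from whole cultures, in which fewer cells with an RNA and less of that RNA per cell cannot be told apart.

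Msn2 and Msn4 are closely related zinc-finger activators. In glucose-rich medium, protein kinase A keeps them in the cytoplasm, and when its activity drops, or under heat, oxidative or osmotic stress, they enter the nucleus and bind the stress response element (STRE) AGGGG in promoters. Their targets encode catalase and other antioxidant enzymes, small protective proteins, enzymes of reserve and redox metabolism and proteins of the cell surface. In the 300 bases upstream of the start codon, AGGGG or its reverse complement CCCCT stood before 25 of the 31 genes (80.6%) and before 22.6% of the 5379 genes with an annotated upstream region. At least 2 copies stood before 13 of the 31 and before 3.48% of all. The 6 without a copy there were ALD2, GRE1, TMA10, YGP1, XBP1 and SPG4, and in 500 bases ALD2, GRE1 and SPG4 still had none, against 34.4% of all genes with a copy. The post-diauxic shift element AGGGAT, searched on both strands in 300 bases, stood before 11 of the 31 (35.5%) and 9.22% of all genes. The heat shock element in either paired form, TTCNNGAA or GAANNTTC, stood before 9 of the 31 (29.0%) and 22.8% of all genes, and the form with 3 alternating units before 0 of the 31 and 0.911% of all. These matches are descriptions of letters, not of bound sites.

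The 4 sequences that follow run from base 300 to base 101 upstream of the start codon, on the strand of the gene and in the R64 reference of RefSeq, with each stress response element in capitals. GAD1 (chrXIII:770501-770700, plus strand) and DCS2 (chrXV:656964-657163, plus strand) are shown because their footprints lagged behind their mRNA, and HSP12 (chrVI:106956-107155, plus strand) and GRX1 (chrIII:61274-61473, minus strand) because, of the 7 genes whose footprints followed their mRNA by the rule given with the occupancy test, these had the occupancy changes nearest 0. Both pairs carry the element, so its presence does not separate them.
GAD1: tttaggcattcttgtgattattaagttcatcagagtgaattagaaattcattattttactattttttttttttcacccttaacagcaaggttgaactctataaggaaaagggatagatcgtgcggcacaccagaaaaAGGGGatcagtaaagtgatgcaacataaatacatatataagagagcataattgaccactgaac
DCS2: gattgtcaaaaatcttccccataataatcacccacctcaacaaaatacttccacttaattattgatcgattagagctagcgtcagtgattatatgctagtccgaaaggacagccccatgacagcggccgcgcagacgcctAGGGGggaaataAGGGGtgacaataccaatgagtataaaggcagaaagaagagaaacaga
HSP12: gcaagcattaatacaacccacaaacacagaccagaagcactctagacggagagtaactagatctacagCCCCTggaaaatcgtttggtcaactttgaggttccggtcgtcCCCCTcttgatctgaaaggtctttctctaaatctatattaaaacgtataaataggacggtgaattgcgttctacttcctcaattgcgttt
GRX1: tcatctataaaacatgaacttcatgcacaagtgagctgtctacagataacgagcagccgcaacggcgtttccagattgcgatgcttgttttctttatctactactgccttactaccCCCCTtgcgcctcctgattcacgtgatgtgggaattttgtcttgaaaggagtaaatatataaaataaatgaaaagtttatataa

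Counts per library in the downstream region, the part of the coding sequence past its start, came to between 698310 and 8110916. In BY4741, both footprint libraries numbered 2 differed from the rest. Across 5018 genes, their log2 CPM and those of the same-numbered polyA libraries had correlations of 0.946 and 0.942, and the other 6 footprint libraries had 0.820 to 0.873, as a description, since genes are no replicates. The counts of genes that passed in tests of footprints are therefore also given without both of those libraries where this changes a call. CPM are counts per 1000000, scaled by the TMM method of edgeR, so every change is relative to the other mRNAs of a library and says nothing of total mRNA or translation per cell. The 31 genes together took 0.0707 to 0.161% of the downstream counts of polyA RNA in glucose and 0.409 to 1.03% without it. Their share of footprints was 0.0712 to 0.165% in glucose and 0.216 to 0.635% without it, the lowest starved value being that of the second BY4741 library.

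All 31 mRNAs rose in polyA RNA after 15 min without glucose, where 20.4% of 5304 genes passed as higher and 19.2% as lower. A gene passed at a Benjamini-Hochberg adjusted p under 0.05 in edgeR's quasi-likelihood F test, over all genes tested, with strain as a covariate. The median log2 change of the 31 was 2.69, from 0.91 for GRX1 to 7.08 for TMA10, and the median of all genes was -0.03. Every starved library lay above every glucose library for 25 of the 31, as for 12.1% of all genes. The exceptions were HSP31, GND2, XBP1, DDR48, YGP1 and GRE1. Genes with few polyA counts in glucose could enter the test only through the starved libraries. GRE1, MOH1, PAI3 and SPG4 did so, with 21, 21, 30 and 19 counts in all over the glucose libraries. Without the filter on low counts 31 of 31 passed too.

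Footprints in the downstream region rose for 16 of the 28 genes that had enough counts, and fell for 0, where 2.93% of 5018 genes passed as higher and 0.259% as lower. GRE1, SDP1 and MOH1 had under 10 footprints in too many libraries to be tested. All 28 changes were above 0, as were 2350 of all 5018, with a median of 2.23 against -0.03 for all genes. Genes with almost no footprints in glucose could enter the test only through the starved libraries, so these counts cover the genes that passed the filter and not all 31. The starved and glucose libraries did not overlap for 10 of the 28, as for 3.83% of all genes. With the replicate number as a block, 22 of 28 passed, the added genes being ALD2, SOL4, TFS1, DDR48, XBP1 and DCS2. Without both BY4741 footprint libraries numbered 2 the filter left 24 genes, of which 19 passed. ALD2 (adjusted p = 0.0234), TFS1 (adjusted p = 0.0229), DDR48 (adjusted p = 0.00995), XBP1 (adjusted p = 0.00530) and DCS2 (adjusted p = 0.00993) were added, and of the genes that had passed, PAI3 and SPG4 were no longer tested. DESeq2 added ALD2, SOL4, TFS1, XBP1 and DCS2. With library size alone NQM1 (adjusted p = 0.0717), PHM7 (adjusted p = 0.243) and USV1 (adjusted p = 0.125) did not pass, and each of these 3 missed in 6 of the 8 fits that left out 1 library. BY4741 alone gave 0 of 29 (18 at an unadjusted p under 0.05, edgeR), as it gave 0 among all genes, and EY0690 alone 21 of 27. Over all genes, 117 passed as higher with library size alone, against 147 in the main fit. For the other alternatives the share of all genes that passed is not given here, and 2.93% does not carry over to them.

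Ribosome occupancy, the footprints of a gene set against its polyA RNA, was tested through the assay by condition term of a fit to the 8 polyA and 8 footprint libraries. It fell for 2 of the 28 genes, GAD1 and DCS2, and rose for 0, where 1.06% of 5018 genes passed as lower and 0.279% as higher (53 and 14 genes, or 48 and 4 with library size alone as the scaling). At an unadjusted p under 0.05 there were 9, all lower, against 828 of 5018 genes in either direction. The change lay below 0 for 22 of the 28 and 2313 of all 5018 genes, with medians of -0.49 and 0.05. The 28 were then split by a fixed rule. Footprints are said to lag where occupancy fell past the threshold (GAD1, DCS2), and to follow the mRNA where it did not and the whole 95% interval of its change lay above a 2-fold loss, a log2 change of -1. That held for 7 genes, PNC1, STF2, SPI1, TMA10, PAI3, HSP12 and GRX1. The rule was not applied to all 5018 genes, so whether 7 of 28 is a common share was not tested. The other 19 are undecided, because their intervals reach past a 2-fold loss without a call. Just inside the limit stood SPI1, whose interval began at -0.998, and just outside it OM45, whose interval began at -1.04. PAI3 is counted among the 7 although it had 12 footprint counts over the glucose libraries and entered the test through its starved ones.

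**Figure D1:**
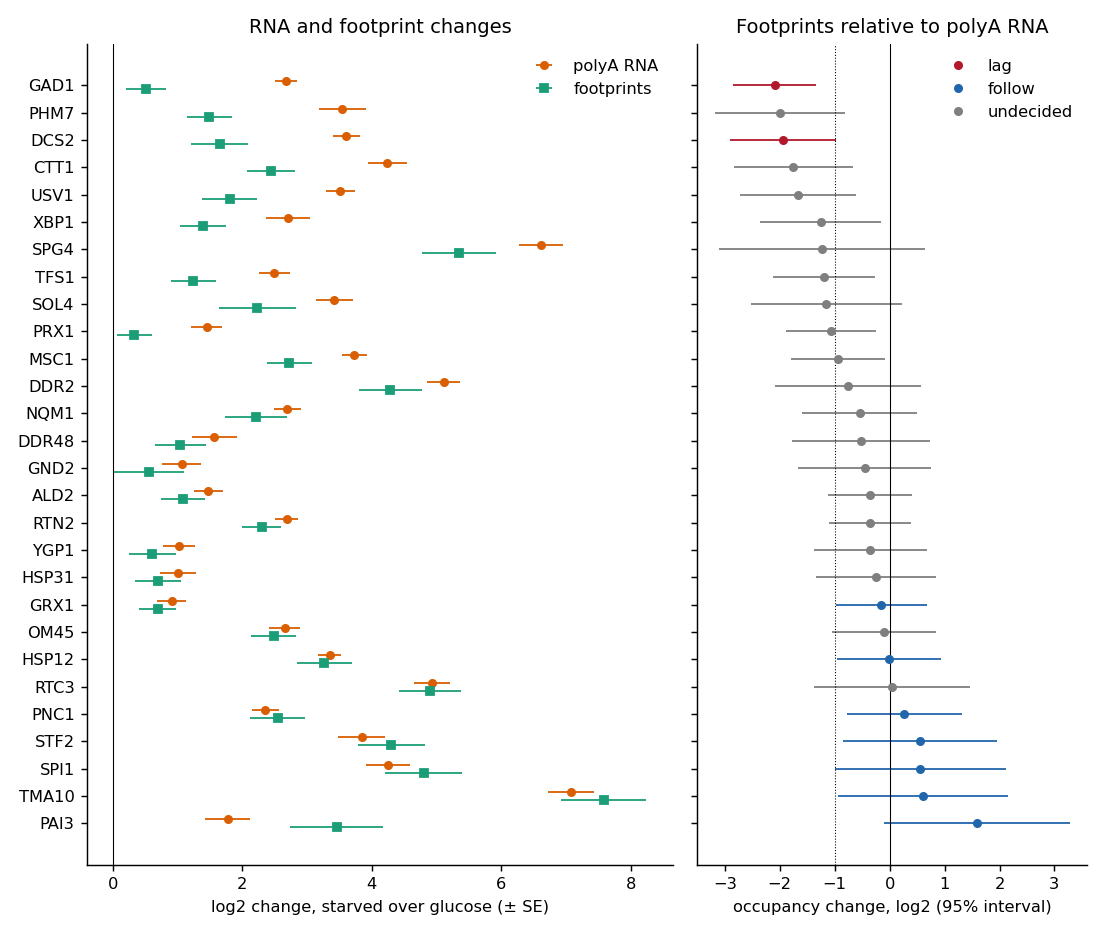
The left panel plots the log2 change of polyA RNA (circles) and of footprints (squares), starved over glucose, with bars of 1 SE, for the 28 genes tested in both, and the right panel the occupancy change with its 95% interval and a dotted line at a 2-fold loss. Every polyA and footprint point lies to the right of 0, and the intervals of GAD1 and DCS2 are the red ones at the top.

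With the replicate block, occupancy fell for 4 of 28, PHM7 (-2.00, adjusted p = 0.0348) and USV1 (-1.77, adjusted p = 0.0230) joining GAD1 and DCS2. The share of all genes that passed with the block is not given here, and the 1.06% of the main fit does not carry over to it. Without both BY4741 footprint libraries numbered 2, GAD1 kept its call (-2.08, adjusted p = 0.00840) and DCS2 did not (-1.69, adjusted p = 0.0764), and 11 of 24 genes met the rule for following. With BY4741 alone neither passed (-1.65 for GAD1 and -1.57 for DCS2, adjusted p = 0.999 for both). DCS2 also did not pass with library size alone (-2.10, adjusted p = 0.0774) or with both regions summed (-1.56, adjusted p = 0.135). GAD1 passed in all 16 fits that left out 1 library, with adjusted p from 0.000921 to 0.0359. DCS2 passed in 5 of those 16, with adjusted p from 0.0116 to 0.140, those without the first or second starved BY4741, the first glucose BY4741 or the first glucose EY0690 footprint library or the second starved BY4741 polyA library. The number that follow ran from 0, without the first starved BY4741 footprint library, to 9, without the second. HSP12 and GRX1 did not meet the rule with DESeq2 size factors, library size alone or the DESeq2 test. They also missed it in most fits that left out 1 library, and HSP12 missed it with EY0690 alone.

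Of the 4 genes of redox defence and detoxification, all 4 mRNAs rose and 1, CTT1, rose in footprints. CTT1 encodes the cytosolic catalase, which breaks down hydrogen peroxide. CTT1 polyA RNA spanned 14.3 to 27.3 CPM in glucose and 135 to 753 CPM without it, a log2 change of 4.24 ± 0.30 (adjusted p = 3.11e-07). Its footprints spanned 5.24 to 31.1 CPM in glucose and 15.3 to 239.8 CPM without it, a change of 2.45 ± 0.37 (adjusted p = 0.00244). The lowest starved footprint library, the second of BY4741, lay below both EY0690 glucose libraries, so these groups overlap. The occupancy change of CTT1 was -1.75 ± 0.51 (adjusted p = 0.105) and it is undecided, while DESeq2 (-1.75, adjusted p = 0.0329) and EY0690 alone (-1.72, adjusted p = 0.0498) called it. GRX1 polyA RNA stood at 94.2 and 66.5 CPM in BY4741 and 97.9 and 96.7 in EY0690 with glucose, and at 216 and 99.9 in BY4741 and 202 and 146 in EY0690 without it. GRX1 encodes a glutaredoxin, which reduces disulfides with glutathione, and it had the smallest mRNA rise of the 31. The highest glucose library lay just under the lowest starved library. GRX1 footprints were at 75.6 and 72.0 CPM in BY4741 and 78.0 and 108 in EY0690 with glucose, and at 168 and 76.5 in BY4741 and 186 and 107 in EY0690 without it. The footprint groups overlap, the second starved library of each strain lying below the second EY0690 glucose library. The log2 change was 0.91 ± 0.23 (adjusted p = 0.00753) for polyA RNA, 0.69 ± 0.28 (adjusted p = 0.251) for footprints and -0.15 ± 0.39 (adjusted p = 0.895) for occupancy, and of these the first passed.

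PRX1 polyA RNA stood at 65.4 and 54.9 CPM in BY4741 and 76.6 and 76.4 in EY0690 with glucose, and at 129 and 123 in BY4741 and 383 and 175 in EY0690 without it. PRX1 encodes the mitochondrial peroxiredoxin, and its starved polyA libraries all lay above its glucose libraries, the first starved EY0690 library being the highest. PRX1 footprints were at 37.8 and 35.4 CPM in BY4741 and 35.9 and 46.6 in EY0690 with glucose, and at 36.6 and 37.2 in BY4741 and 90.8 and 41.8 in EY0690 without it. These footprint groups overlap and all but the first starved EY0690 library lie within a narrow band below it. The polyA change was 1.45 ± 0.24 (adjusted p = 0.000554), and that of footprints, 0.34 ± 0.28 (adjusted p = 0.655), was the smallest of the 28. PRX1 occupancy changed by -1.07 ± 0.39 (adjusted p = 0.177). HSP31 polyA RNA stood at 31.7 and 36.6 CPM in BY4741 and 85.3 and 65.5 in EY0690 with glucose, and at 61.3 and 49.0 in BY4741 and 289 and 94.2 in EY0690 without it. HSP31 encodes a protein of the DJ-1 family that acts as a chaperone and removes methylglyoxal. Both starved BY4741 libraries lay below both EY0690 glucose libraries, so the groups overlap across strains while within each strain they do not. HSP31 footprints were at 25.6 and 15.9 CPM in BY4741 and 38.0 and 28.5 in EY0690 with glucose, and at 27.3 and 18.5 in BY4741 and 117 and 49.4 in EY0690 without it. The first starved EY0690 library stands above all the others in both kinds of library. HSP31 changed by 1.01 ± 0.28 (adjusted p = 0.0142) in polyA RNA, 0.71 ± 0.36 (adjusted p = 0.385) in footprints and -0.25 ± 0.51 (adjusted p = 0.860) in occupancy.

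Of the 6 metabolic enzymes, all 6 mRNAs rose and 2, NQM1 and PNC1, rose in footprints. GAD1 polyA RNA stood at 22.9 and 33.7 CPM in BY4741 and 54.8 and 75.7 in EY0690 with glucose, and at 186 and 180.0 in BY4741 and 386 and 431 in EY0690 without it. GAD1 encodes glutamate decarboxylase, which makes gamma-aminobutyrate from glutamate. Every starved polyA library lay far above every glucose library. GAD1 footprints were at 12.2 and 18.8 CPM in BY4741 and 56.4 and 73.8 in EY0690 with glucose, and at 43.4 and 25.6 in BY4741 and 63.95 and 57.9 in EY0690 without it. In BY4741 both starved footprint libraries lay above both glucose libraries, and in EY0690 the glucose and starved libraries overlap. GAD1 polyA RNA rose by 2.67 ± 0.17 (adjusted p = 1.57e-07) and its footprints changed by 0.52 ± 0.31 (adjusted p = 0.490). The occupancy change of -2.09 ± 0.36 (95% interval -2.85 to -1.34, adjusted p = 0.00873) was the lowest of the 28. Footprints over polyA RNA for GAD1 went from a log2 ratio of 0.14 ± 0.26 in glucose to -1.95 ± 0.25 without it.

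PNC1 polyA RNA stood at 72.0 and 105 CPM in BY4741 and 278 and 297 in EY0690 with glucose, and at 628 and 471 in BY4741 and 1442 and 984 in EY0690 without it. PNC1 encodes nicotinamidase, which clears nicotinamide in the salvage of NAD+. The EY0690 libraries lay above the BY4741 libraries within each condition, and all starved ones above all glucose ones. PNC1 footprints were at 38.7 and 63.2 CPM in BY4741 and 189.8 and 262 in EY0690 with glucose, and at 648 and 174 in BY4741 and 1136 and 788 in EY0690 without it. The footprint groups overlap through the second starved BY4741 library, which lay below both EY0690 glucose libraries. The log2 change of PNC1 was 2.36 ± 0.21 (adjusted p = 2.74e-06) in polyA RNA, 2.55 ± 0.42 (adjusted p = 0.00463) in footprints and 0.27 ± 0.50 (adjusted p = 0.840) in occupancy, and it follows. GND2 polyA RNA stood at 2.02 and 3.15 CPM in BY4741 and 10.2 and 7.80 in EY0690 with glucose, and at 5.65 and 5.22 in BY4741 and 24.8 and 13.7 in EY0690 without it. GND2 encodes the minor 6-phosphogluconate dehydrogenase of the pentose phosphate pathway. Its starved BY4741 libraries lay below its EY0690 glucose libraries. GND2 footprints were at 3.49 and 1.53 CPM in BY4741 and 8.21 and 2.59 in EY0690 with glucose, and at 3.72 and 1.97 in BY4741 and 13.8 and 8.55 in EY0690 without it. Its footprint counts came to 37 in all with glucose and 47 without it. GND2 changed by 1.07 ± 0.30 (adjusted p = 0.0149) in polyA RNA and 0.56 ± 0.54 (adjusted p = 0.712) in footprints.

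NQM1, a relative of transaldolase, rose by 2.70 ± 0.20 in polyA RNA and by 2.22 ± 0.48 in footprints (adjusted p = 0.0246). SOL4, a 6-phosphogluconolactonase, rose by 3.42 ± 0.29 in polyA RNA, with 1.47 to 13.6 CPM in glucose and 28.9 to 98.4 CPM without it, while its footprint change of 2.24 ± 0.60 did not pass (adjusted p = 0.0735). ALD2, a cytoplasmic aldehyde dehydrogenase, rose by 1.48 ± 0.23 in polyA RNA, and its footprint change was 1.09 ± 0.34 (adjusted p = 0.124). Of the 28-base words of ALD2, 51.7% also occur in its neighbour and near-copy ALD3. The deposited table has no row named ALD3, and how shared reads were assigned is not known, so the counts of ALD2 are uncertain. The occupancy changes of NQM1, SOL4 and ALD2 were -0.55 ± 0.49, -1.15 ± 0.65 and -0.35 ± 0.36, and all 3 are undecided.

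Both protease inhibitors rose in polyA RNA, and 1 of the 2, PAI3, rose in footprints. PAI3 encodes the cytoplasmic inhibitor of proteinase A, the main vacuolar aspartyl protease. PAI3 polyA RNA spanned 1.47 to 4.36 CPM in glucose and 4.60 to 13.6 CPM without it and rose by 1.78 ± 0.35 (adjusted p = 0.00198). Its footprints spanned 0 to 0.918 CPM in glucose and 3.33 to 19.6 CPM without it, from 12 counts in all over the glucose libraries, with 0 in both EY0690 ones. The fitted footprint change of 3.46 ± 0.72 (adjusted p = 0.0194) rests on those few counts, as does the highest occupancy change of the 28, 1.59 ± 0.80 (adjusted p = 0.331). TFS1 encodes an inhibitor of carboxypeptidase Y. TFS1 polyA RNA spanned 19.8 to 49.9 CPM in glucose and 73.7 to 303 CPM without it, a rise of 2.50 ± 0.24 (adjusted p = 5.92e-06), and its footprints 7.27 to 38.9 CPM in glucose and 18.9 to 63.2 CPM without it, a change of 1.25 ± 0.35 (adjusted p = 0.0899). The occupancy change of TFS1, -1.20 ± 0.44 (adjusted p = 0.185), left it undecided. EY0690 alone gave TFS1 an occupancy change of -2.07 (adjusted p = 0.0320).

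The 6 small stress proteins rose in polyA RNA, and 4 of the 5 tested (HSP12, DDR2, STF2, TMA10) rose in footprints. HSP12 polyA RNA stood at 19.4 and 24.4 CPM in BY4741 and 77.6 and 101 in EY0690 with glucose, and at 253 and 259.5 in BY4741 and 793 and 798 in EY0690 without it. HSP12 encodes a small heat shock protein that stabilises membranes. HSP12 footprints were at 27.9 and 18.6 CPM in BY4741 and 31.8 and 79.0 in EY0690 with glucose, and at 416 and 125 in BY4741 and 499 and 364 in EY0690 without it. In both kinds of library every starved value lay above every glucose value. HSP12 rose by 3.35 ± 0.17 (adjusted p = 2.74e-08) in polyA RNA and 3.27 ± 0.42 (adjusted p = 0.000840) in footprints, so that its occupancy change was -0.01 ± 0.45 (adjusted p = 0.997), the nearest to 0 of all 28. STF2 polyA RNA stood at 17.8 and 20.9 CPM in BY4741 and 68.8 and 56.2 in EY0690 with glucose, and at 635 and 230.1 in BY4741 and 704 and 443 in EY0690 without it. STF2 encodes a hydrophilic protein known for binding the mitochondrial ATP synthase and for protection in drying. STF2 footprints were at 6.40 and 13.3 CPM in BY4741 and 28.7 and 32.4 in EY0690 with glucose, and at 549 and 135 in BY4741 and 354 and 313 in EY0690 without it. The second starved BY4741 library was the lowest of its group in both, yet above every glucose library. STF2 rose by 3.84 ± 0.36 (adjusted p = 4.63e-06) in polyA RNA and 4.31 ± 0.52 (adjusted p = 0.000530) in footprints, with an occupancy change of 0.55 ± 0.67 (adjusted p = 0.733).

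TMA10 polyA RNA stood at 6.05 and 4.38 CPM in BY4741 and 8.73 and 6.24 in EY0690 with glucose, and at 1007 and 398 in BY4741 and 1296 and 802 in EY0690 without it. TMA10 is a ribosome-associated protein and the duplicate of STF2. Its rise in polyA RNA, 7.08 ± 0.36 (adjusted p = 2.47e-08), was the largest of the 31. TMA10 footprints were at 3.78 and 3.77 CPM in BY4741 and 9.23 and 10.4 in EY0690 with glucose, and at 1759 and 247 in BY4741 and 1525 and 985 in EY0690 without it. Glucose libraries held 67 TMA10 footprint counts in all and the starved ones 7604, with no overlap, and the change was 7.58 ± 0.66 (adjusted p = 7.46e-05). Occupancy changed by 0.60 ± 0.73 (adjusted p = 0.736). Per kilobase of coding length, TMA10 stood at 3368 CPM in starved polyA RNA, the highest level of the 31, followed by STF2 at 1981, HSP12 at 1598, PNC1 at 1356 and DDR2 at 1042. In glucose the highest per kilobase were PNC1 at 289 and GRX1 at 268 CPM, and TMA10 was at 24.4. DDR2 polyA RNA stood at 1.10 and 1.37 CPM in BY4741 and 8.73 and 14.8 in EY0690 with glucose, and at 71.6 and 44.9 in BY4741 and 301 and 354 in EY0690 without it. DDR2 encodes a very short protein induced by many stresses. DDR2 footprints were at 2.62 and 2.65 CPM in BY4741 and 8.21 and 15.5 in EY0690 with glucose, and at 93.6 and 17.6 in BY4741 and 251 and 193 in EY0690 without it. The EY0690 libraries were higher than the BY4741 libraries in each condition, and starved and glucose libraries did not overlap in either kind. DDR2 changed by 5.11 ± 0.25 (adjusted p = 2.08e-08) in polyA RNA, 4.29 ± 0.48 (adjusted p = 0.000389) in footprints and -0.76 ± 0.63 (adjusted p = 0.594) in occupancy.

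DDR48, a hydrophilic protein induced by DNA damage, stood higher in BY4741 than in EY0690 in footprints and in glucose polyA RNA. In starved polyA RNA the strains overlapped. DDR48 polyA RNA was at 189 and 116 CPM in BY4741 and 27.6 and 42.9 in EY0690 with glucose, and at 315 and 213 and 256 and 152 without it, so the first glucose BY4741 library lay above the second starved EY0690 one. Its polyA rise was 1.57 ± 0.34 (adjusted p = 0.00383) and its footprint change 1.05 ± 0.40 (adjusted p = 0.217). In DDR48, 49.4% of the 28-base words occur more than once in the genome, its own repeats included, so its counts depend on how such reads were assigned. GRE1, a hydrophilin, rose by 2.04 ± 0.49 (adjusted p = 0.00588) in polyA RNA from 21 counts over the glucose libraries, and its footprints were not tested.

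**Figure D2:**
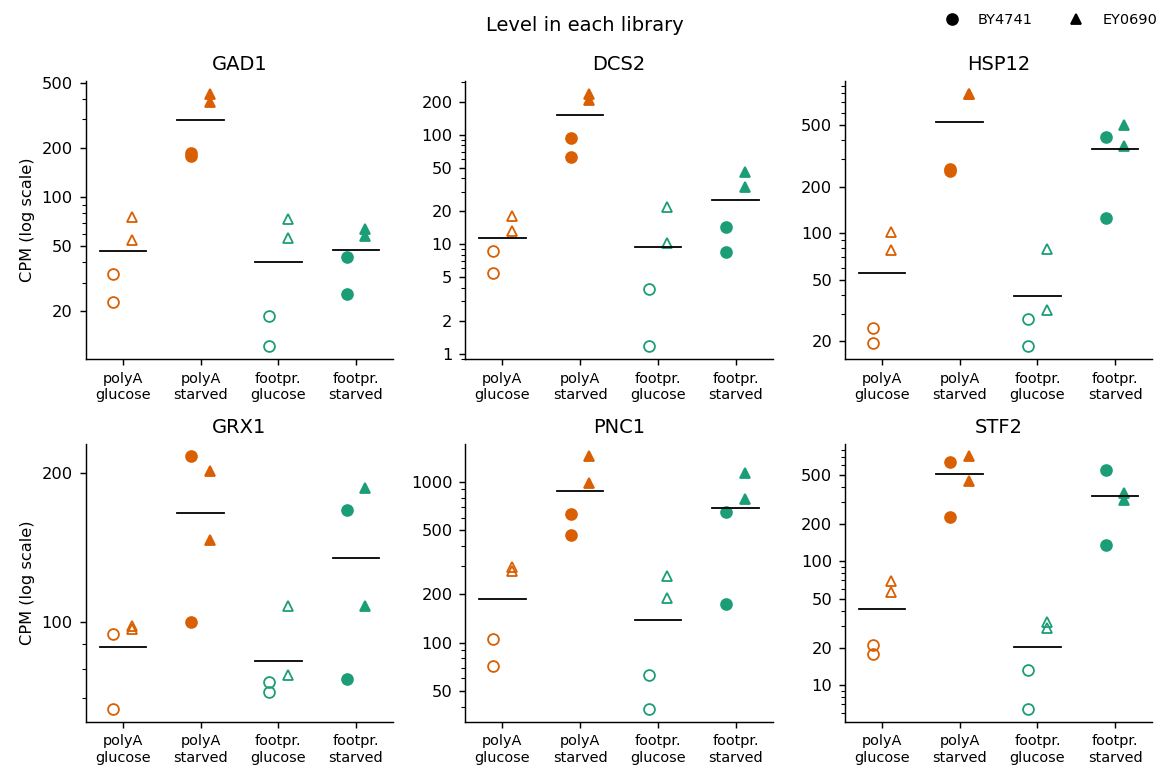
CPM on a log axis in each polyA (orange) and footprint (green) library for GAD1, DCS2, HSP12, GRX1, PNC1 and STF2, open symbols in glucose and filled symbols without it, circles for BY4741 and triangles for EY0690, with a bar at the mean of 4 libraries. For GAD1 and DCS2 the step in footprints is smaller than the step in polyA RNA, while for HSP12 the log2 steps are 3.35 and 3.27.

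Of the 5 genes of the cell surface and membranes, all 5 mRNAs rose and 4 rose in footprints, the exception being YGP1. SPI1 polyA RNA stood at 16.7 and 23 CPM in BY4741 and 14.1 and 10.1 in EY0690 with glucose, and at 330.2 and 183 in BY4741 and 542 and 297 in EY0690 without it. SPI1 encodes a cell wall protein held by a glycolipid anchor. SPI1 footprints were at 15.1 and 11.8 CPM in BY4741 and 13.3 and 5.18 in EY0690 with glucose, and at 508 and 69.0 in BY4741 and 515 and 284 in EY0690 without it. No glucose library reached a starved one in either kind, and the second starved BY4741 footprint library was the lowest starved one. SPI1 rose by 4.25 ± 0.34 (adjusted p = 9.10e-07) in polyA RNA and 4.80 ± 0.59 (adjusted p = 0.000630) in footprints, with an occupancy change of 0.56 ± 0.74 (adjusted p = 0.760). YGP1 polyA RNA stood at 33.3 and 34.6 CPM in BY4741 and 180.3 and 246 in EY0690 with glucose, and at 127 and 89.5 in BY4741 and 269 and 286 in EY0690 without it. YGP1 encodes a secreted glycoprotein related to cell wall proteins. Both EY0690 glucose libraries lay above both BY4741 starved libraries, so the conditions overlap across strains. YGP1 footprints were at 78.8 and 32.9 CPM in BY4741 and 276 and 358 in EY0690 with glucose, and at 143 and 48.3 in BY4741 and 474 and 397 in EY0690 without it. The same order held in footprints, where the second starved BY4741 library lay below the first glucose library of its strain. YGP1 changed by 1.02 ± 0.25 (adjusted p = 0.00618) in polyA RNA, 0.61 ± 0.36 (adjusted p = 0.480) in footprints and -0.35 ± 0.49 (adjusted p = 0.779) in occupancy, and in EY0690 alone its polyA change was 0.39 and did not pass (adjusted p = 0.220).

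RTN2, a reticulon that shapes the endoplasmic reticulum, rose by 2.69 ± 0.18 in polyA RNA and 2.30 ± 0.30 in footprints (adjusted p = 0.000876). OM45, a protein of the mitochondrial outer membrane, rose by 2.66 ± 0.24 and 2.49 ± 0.34 (adjusted p = 0.00136 for footprints), with an occupancy change of -0.10 ± 0.45. PHM7, a membrane protein of unknown function, rose by 3.55 ± 0.37 (adjusted p = 1.01e-05) in polyA RNA, with 2.02 to 11.6 CPM in glucose and 19.7 to 168 CPM without it. PHM7 footprints rose by 1.50 ± 0.35 (adjusted p = 0.0373), with 0.873 to 29.8 CPM in glucose and 3.94 to 93.8 CPM without it, and the groups overlap because both EY0690 glucose libraries lay above both BY4741 starved ones. Its occupancy change of -2.00 ± 0.56 (adjusted p = 0.0878) lay between those of GAD1 and DCS2 and did not pass, while DESeq2 called it (-2.05, adjusted p = 0.0172).

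The 4 regulators rose in polyA RNA, and of the 3 tested in footprints 1, USV1, rose. DCS2 polyA RNA stood at 5.50 and 8.62 CPM in BY4741 and 17.9 and 13.3 in EY0690 with glucose, and at 62.6 and 94.0 in BY4741 and 236 and 206 in EY0690 without it. DCS2 encodes a relative and regulator of the scavenger decapping enzyme DCS1, which acts on the caps left by mRNA decay. Every starved polyA library lay above every glucose library. DCS2 footprints were at 1.16 and 3.88 CPM in BY4741 and 10.3 and 22.0 in EY0690 with glucose, and at 14.3 and 8.48 in BY4741 and 45.1 and 33.2 in EY0690 without it. The second starved BY4741 footprint library lay below both EY0690 glucose libraries, so the groups overlap, while within each strain the starved libraries were higher. DCS2 polyA RNA rose by 3.61 ± 0.21 (adjusted p = 7.56e-08) and the footprint change was 1.65 ± 0.44 (adjusted p = 0.0672). Its occupancy change was -1.94 ± 0.46 (95% interval -2.90 to -0.98, adjusted p = 0.0451), and the log2 ratio of footprints to polyA RNA went from -0.13 ± 0.34 to -2.07 ± 0.30, the lowest starved ratio of the 28. USV1, a zinc-finger transcription factor, rose by 3.51 ± 0.22 in polyA RNA and 1.81 ± 0.42 in footprints (adjusted p = 0.0383), with an occupancy change of -1.67 ± 0.50 (adjusted p = 0.110) that DESeq2 called (-1.68, adjusted p = 0.0415), as did EY0690 alone (-2.24, adjusted p = 0.0449). XBP1, a stress-induced transcriptional repressor, rose by 2.71 ± 0.34 in polyA RNA, and its footprint change was 1.39 ± 0.36 (adjusted p = 0.0602). XBP1 had the highest footprint to polyA log2 ratio of the 28 in glucose, 2.19 ± 0.40. SDP1, a phosphatase of the cell wall MAP kinase, rose by 1.68 ± 0.24 (adjusted p = 0.000218) in polyA RNA, and its footprints were not tested.

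All 4 little-characterised genes rose in polyA RNA, and the 3 tested rose in footprints. SPG4 polyA RNA stood at 1.83 and 0.958 CPM in BY4741 and 0.97 and 0 in EY0690 with glucose, and at 105 and 73.3 in BY4741 and 210.5 and 216 in EY0690 without it. SPG4 is needed for survival at high temperature in stationary phase, and its glucose libraries held 19 polyA counts in all. SPG4 footprints were at 0.873 and 0.714 CPM in BY4741 and 4.10 and 0 in EY0690 with glucose, and at 58.3 and 15.6 in BY4741 and 82.1 and 79.8 in EY0690 without it. The glucose footprint libraries held 14 counts and the starved ones 394, with no overlap, and SPG4 entered the footprint test only through the starved ones. SPG4 rose by 6.62 ± 0.34 (adjusted p = 2.74e-08) in polyA RNA and 5.35 ± 0.57 (adjusted p = 0.000276) in footprints, and its occupancy interval, -3.11 to 0.64, was too wide to place it. RTC3 polyA RNA stood at 2.02 and 4.79 CPM in BY4741 and 10.7 and 21.8 in EY0690 with glucose, and at 156 and 108 in BY4741 and 426 and 357 in EY0690 without it. RTC3 is a small protein whose function in stress is little known. RTC3 footprints were at 5.53 and 5.81 CPM in BY4741 and 11.3 and 24.6 in EY0690 with glucose, and at 312 and 66.9 in BY4741 and 563 and 382 in EY0690 without it. Here too starved and glucose libraries did not overlap in either kind, and EY0690 stood above BY4741. RTC3 changed by 4.93 ± 0.28 (adjusted p = 5.93e-08) in polyA RNA, 4.90 ± 0.48 (adjusted p = 0.000150) in footprints and 0.05 ± 0.67 in occupancy, with an interval of -1.37 to 1.47. MSC1 rose by 3.74 ± 0.19 in polyA RNA and 2.73 ± 0.35 in footprints (adjusted p = 0.000826), with 21.2 to 77.7 CPM in glucose and 96.0 to 411 CPM without it. MOH1 rose by 2.37 ± 0.39 (adjusted p = 0.000598) in polyA RNA from 21 counts over the glucose libraries.

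**Figure D3:**
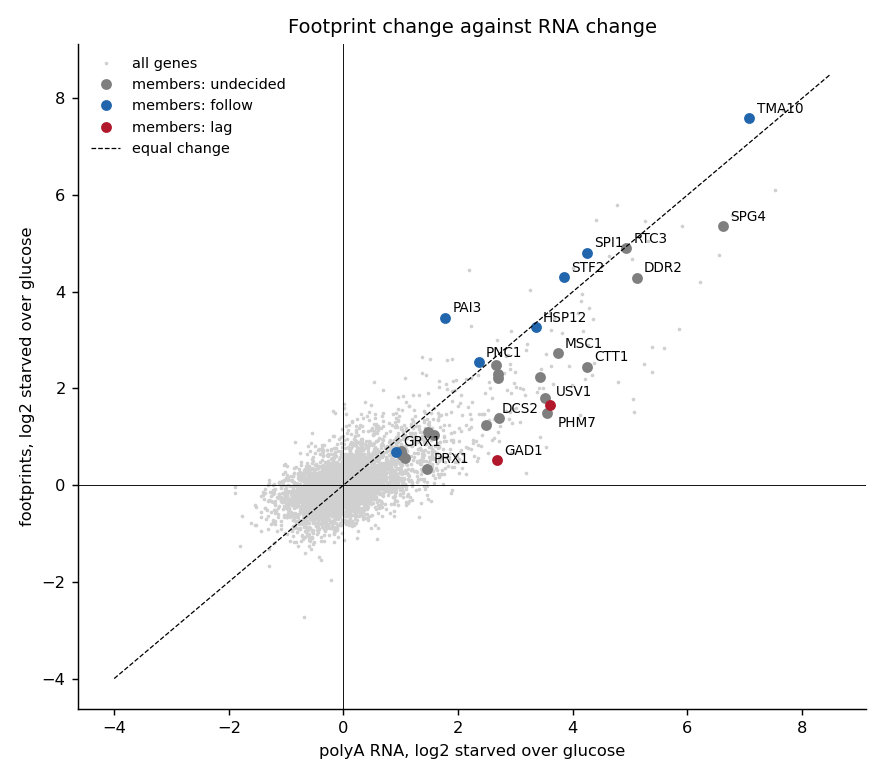
The log2 footprint change against the log2 polyA change, starved over glucose, for all genes tested in both (grey) and the 28 genes, coloured by whether footprints lag, follow or are undecided, with a dashed line of equal change. GAD1 at 2.67 and 0.52 lies farthest below the line among the 28, and TMA10 at 7.08 and 7.58 is at the upper right.

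Occupancy changes were lower in the longer genes. Across the 28 genes the occupancy change had a Spearman correlation of -0.64 and a Pearson correlation of -0.63 with coding length, and across all 5018 genes tested 0.08 and 0.07. Without PAI3 the Spearman correlation over the other 27 was -0.60. It ran from -0.66 to -0.52 when 1 library was left out and from -0.69 to -0.54 under the 9 other alternatives. These correlations are descriptions across genes that share the same 16 libraries. The 7 genes that follow had coding lengths of 207 to 651 bases with a median of 330, or 255 to 651 with a median of 331.5 without PAI3. Those of GAD1 and DCS2 were 1758 and 1062 bases, and those of the 19 undecided genes ran from 186 to 2976 with a median of 1176. The 10 shortest of the 28 held all 7 that follow, with DDR2, RTC3 and SPG4 undecided and 0 that lag. That split depends on the limit of a 2-fold loss, which OM45 and RTN2 (1182 bases each) and ALD2 (1521 bases) missed with intervals from -1.04, -1.10 and -1.11. Without both BY4741 footprint libraries numbered 2 those 3 and NQM1 were among the 11 that follow. Between the 28 genes the occupancy change and the polyA change had a Spearman correlation of -0.11. A stress response element lay in the 300 upstream bases for 6 of the 7 that follow, both that lag and 15 of the 19 undecided genes.

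**Figure D4:**
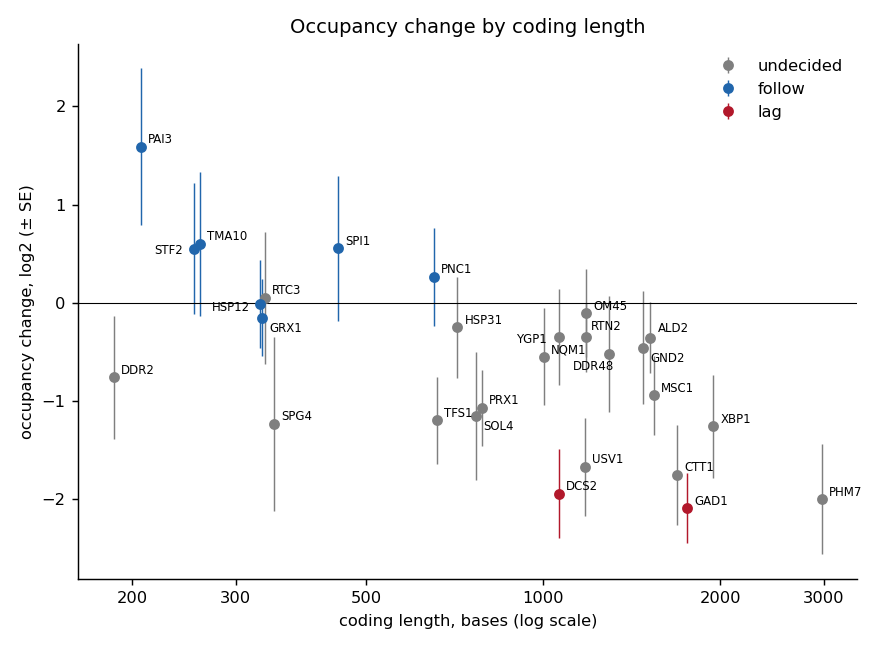
The occupancy change (log2, bars of 1 SE) against coding length on a log axis for the 28 genes, coloured by whether footprints lag, follow or are undecided. All 7 genes that follow have 651 coding bases or fewer, and the 2 that lag, GAD1 and DCS2, have 1758 and 1062.

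The tests so far leave out the initiation region, where footprints at the start of the coding sequence were counted apart. The share of a gene's footprints in that region was tested with limma on the log2 ratio of initiation to downstream counts. It rose for 3 of the 28 genes tested, CTT1, MSC1 and USV1, and fell for 0, where 1.10% of 5082 genes passed as higher and 0.256% as lower. The change was above 0 for 26 of 28 and for 3433 of all 5082 genes tested, with medians of 1.36 and 0.40. For the catalase CTT1 the share was 4 to 14.3% in glucose and 48.4 to 69.3% without it, a log2 change of 4.04 ± 0.71 (adjusted p = 0.00106). In the starved libraries together, 55.9% (843 of 1508 counts, exact 95% interval 53.4 to 58.4%) of its footprints lay there, against 6.62% (10 of 151 counts, exact 95% interval 3.22 to 11.8%) in glucose. For MSC1 the share was 1.64 to 5.19% in glucose and 21.3 to 51.6% without it, a change of 3.75 ± 0.63 (adjusted p = 0.000647). USV1 had 0 of 76 footprint counts in the region in glucose, which allows a share of up to 4.74% (exact 95% limit), and 8.11 to 46.0% without it, a change of 3.35 ± 0.87 (adjusted p = 0.0391). Every starved share lay above every glucose share for these 3, but they were called on the same shares. The same held for DCS2, GAD1, PHM7, STF2 and TFS1, and it was not counted over all genes. These intervals cover counting error only.

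In polyA RNA, where no test was run, the pooled share in the initiation region was 2.16% in glucose and 1.26% without it for CTT1, 2.06% and 1.73% for MSC1, and 0% and 1.82% for USV1. GAD1, whose footprints lag, had 2.33 to 11.3% in glucose and 13.6 to 41.3% without it, a change of 2.54 ± 0.71 (adjusted p = 0.0625), and DCS2 0 to 20% in glucose and 22.2 to 44% without it, a change of 2.15 ± 0.89 (adjusted p = 0.246). HSP12, whose footprints follow, had 17.3 to 43.6% in glucose and 34.1 to 58.0% without it and GRX1 16.3 to 21.0% in glucose and 13.8 to 34.3% without it, and their groups overlap. Of the 7 that follow, STF2 did not overlap, with 10.3 to 37.1% in glucose and 42.6 to 75.3% without it, a change of 2.05 ± 0.65 (adjusted p = 0.0994), and the other 6 did. ALD2 had 1 count in the region over all 8 footprint libraries. Across the 28 genes the occupancy change and the change of the initiation share had a Spearman correlation of -0.50 and a Pearson correlation of -0.62, and across 5018 genes -0.53 and -0.56, but both measures contain the same downstream counts. With the replicate block USV1 no longer passed (adjusted p = 0.0537), nor did it without both BY4741 footprint libraries numbered 2 (adjusted p = 0.184), while CTT1 and MSC1 passed both times. A quasi-binomial test of the shares called 0 of 28 (11 at an unadjusted p under 0.05, for which the number over all genes is not given here).

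**Figure D5:**
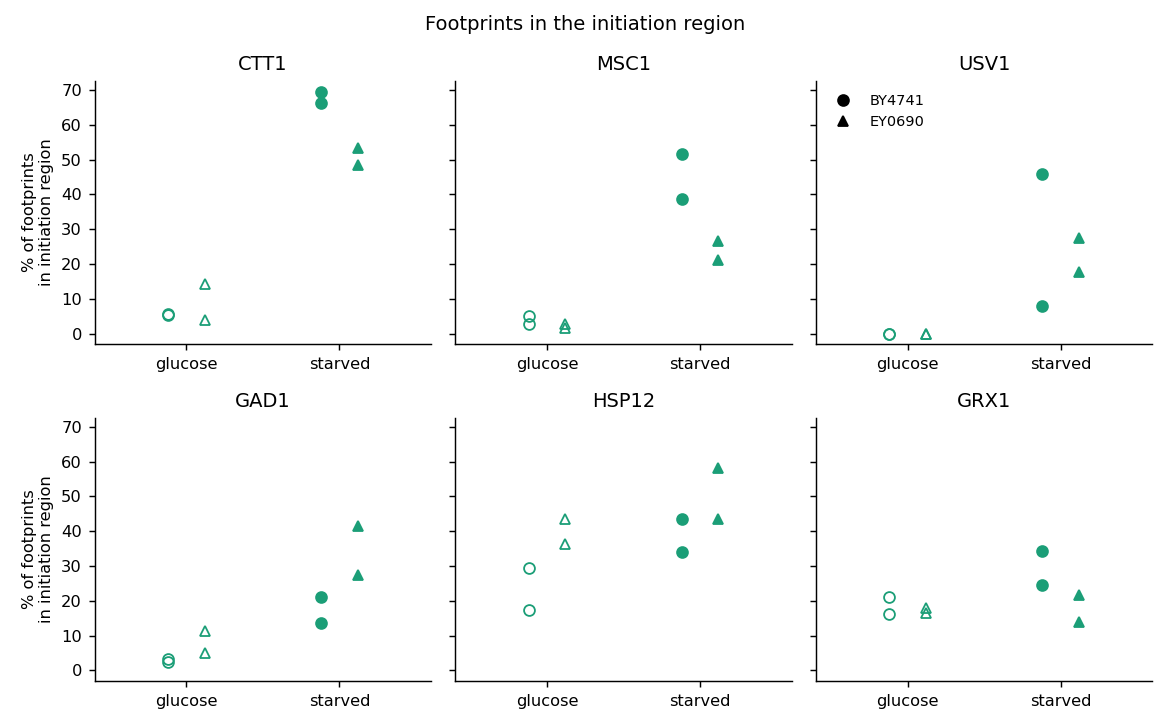
The percentage of a gene's footprints in the initiation region in each library for CTT1, MSC1, USV1, GAD1, HSP12 and GRX1, open symbols in glucose and filled ones without it, circles for BY4741 and triangles for EY0690. For CTT1 all 4 glucose values lie at or below 14.3% and all 4 starved values at or above 48.4%, whereas the values of HSP12 and GRX1 overlap.

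The EY0690 libraries were the higher ones for most of these genes. Both EY0690 polyA libraries lay above both BY4741 ones for 23 of the 31 genes in glucose, as for 31.7% of all genes, and for 25 of the 31 without it, as for 32.3%. SPI1 and DDR48 had the opposite order in glucose. In footprints the EY0690 libraries were the higher for 21 of 28 genes in glucose, as for 29.7% of all genes, and for 20 of 28 without it, as for 23.2%. The difference in level between the strains was not tested. The response itself passed a test of the strain difference for 0 of 31 genes in polyA RNA, where 0.0566% of genes passed as larger in EY0690 and 0.113% as smaller, and for 0 of 28 in footprints, where 0% of genes passed in either direction. At an unadjusted p under 0.05 there were 7 and 1, against 300 of 5304 and 152 of 5018 over all genes. DESeq2 also called 0 and 0. Without both BY4741 footprint libraries numbered 2, the footprint response was smaller in EY0690 for 2 of 24 genes, PNC1 (-1.98, adjusted p = 0.0360) and STF2 (-2.96, adjusted p = 0.00524), where 0.781% of genes passed as smaller and 0.232% as larger. That fit has 1 BY4741 library per condition, which is assumed to vary like the EY0690 ones. In polyA RNA the lowest p-values were those of YGP1, with an EY0690 minus BY4741 difference of -1.28 (adjusted p = 0.248), and of DDR48, with a difference of 1.77 (adjusted p = 0.248). In footprints the lowest over all libraries was that of GAD1, with changes of 1.11 in BY4741 and -0.09 in EY0690 (adjusted p = 0.997). These p-values are from edgeR's strain by condition term.

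RNA that was not selected by its polyA tail was also sequenced. In BY4741 total RNA the log2 change, from 1 library per condition and with 0.5 CPM added, was above 0 for 28 of 31 with a median of 2.61, and the authors' pooled EY0690 column had 31 of 31 above 0 with a median of 2.41. The polyA medians were 2.70 in BY4741 and 2.95 in EY0690. Below 0 in BY4741 total RNA were PAI3 at -0.97, SDP1 at -0.16 and MOH1 at -1.28. Their counts were low, 4 with glucose and 1 without it for PAI3, 12 and 7 for SDP1 and 20 and 5 for MOH1. A test of polyA selection against total RNA, which assumes that the lone BY4741 total libraries vary like the polyA ones, called 0 of 31 in edgeR, where 0% of all genes passed in either direction, and DESeq2 called 0. At an unadjusted p under 0.05 there were 4 (PNC1, PAI3, SDP1 and MOH1), against 156 of 5304 genes in either direction.

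Genes of the pathway that controls Msn2 and Msn4 changed in both directions. Of 15 read, 7 rose in polyA RNA and 1 fell, where 20.4% of all genes passed as higher and 19.2% as lower. MSN2 changed by -0.05 ± 0.17 (adjusted p = 0.828) and MSN4, its duplicate, rose by 1.45 ± 0.19 (adjusted p = 7.30e-05). GIS1, an activator that works beside them under the kinase Rim15, rose by 2.32 ± 0.25, and YAK1, a kinase opposed by protein kinase A, by 1.67 ± 0.16. Of the subunits of protein kinase A, the catalytic TPK2 rose by 1.93 ± 0.18 and the regulatory BCY1 by 1.36 ± 0.17, while TPK3 fell by 0.84 ± 0.21 (adjusted p = 0.00766). The 14-3-3 gene BMH1 and the glucose-sensing kinase SNF1 rose by 0.41 ± 0.14 and 0.53 ± 0.14. In footprints 0 of the 15 passed (1 at an unadjusted p under 0.05, edgeR), and occupancy fell for GIS1 (-1.76 ± 0.41 (adjusted p = 0.0439)), TPK2 (-1.49 ± 0.27 (adjusted p = 0.0133)) and YAK1 (-1.40 ± 0.29 (adjusted p = 0.0267)). The initiation share rose for MSN4 and GIS1.

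A list of other known targets of these factors was read for comparison. Most are enzymes of glycogen and trehalose metabolism, sugar kinases and chaperones. It also held UBI4, SOD2, CYC7 and TKL2, and ALD3, which had no row under that name. All 22 tested rose in polyA RNA and 14 of 21 in footprints, where 20.4% and 2.93% of all genes passed as higher. Occupancy fell for 7 of 21, with a median of -1.30, and for 2 of 28 of the genes described here, with a median of -0.49. Over all genes, 1.06% passed as lower. The 7 were GSY1, GLC3, GPH1, UGP1, HXK1, HSP42 and SSE2. The initiation share rose for 8 of the 22, as for 1.10% of all genes. The difference between the lists was not tested. Of 10 paralogs outside the 31, 5 rose in polyA RNA (GRX2, DCS1, SED1, HOR7 and CTA1) and 0 fell, and GND1, TAL1, SOL3, RTN1 and RGM1 did not pass. The change was larger in the gene described here than in its paralog for 9 of the 10, the exception being GRX1 with 0.91 and GRX2 with 1.19.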

How the data were processed

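Per the file headers, the deposited table gives whole-number counts of reads for an initiation region and the downstream region of each coding sequence. The submitters' processing notes name Bowtie 0.12.8 and the genome build R64; how reads were assigned to regions, and the bounds of these, is not given in the sources used here. Blank cells, which the table holds in place of some counts, were read as 0, and 2 count columns that match no sample were not used. The table's own coordinates lay within 1 base of the R64 annotation for 39.1% of genes, so positions printed are those of the annotation.

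Downstream counts were tested by the quasi-likelihood method of edgeR 4.0.16 (R 4.3.3), scaled by TMM. A gene entered if, in each kind of library tested, 4 or more held 10 or more counts, and a Benjamini-Hochberg adjusted p under 0.05 over all genes tested passes. DESeq2 1.42.0 was an alternative, and limma 3.58.1 tested initiation over downstream footprints with 0.5 added to each. The ± of a log2 change is its SE, the change divided by the square root of F or its limma equivalent. Scripts were tested on simulated data. The members, lists and tests were chosen with earlier results of these data known. One gene of the pathway list is not reported here. Values in every library are given for genes whose occupancy change passed, those with the 5 largest and 3 smallest polyA and footprint changes, the 5 highest starved polyA levels per length, and the 4 that follow with occupancy changes nearest 0. Libraries sharing a number deviated together in each strain (correlations 0.147 and 0.306 in polyA RNA, 0.681 and 0.209 in footprints), so the numbers were taken as pairs in an alternative fit.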

Additional observations from a re-analysis of the deposited data

Results flagged for a closer look

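Of 124 groups of 4 libraries (31 genes, polyA and footprint, glucose and starved), 8 had a library far from the other 3. The cut marks about 1 in 20 groups when all 4 values are alike in origin. Each group here mixed both strains, which often differed in level, so that rate does not apply. In glucose polyA RNA the second BY4741 library was low for GRX1 at 66.5 CPM (others 94.2 to 97.9). The second EY0690 library was high for MSC1 at 84.2 CPM (others 50.4 to 55.9) and for XBP1 at 10.9 CPM (others 2.05 to 3.39). The first EY0690 library was high for PAI3 at 4.36 CPM (others 1.47 to 1.56). In glucose footprints the first EY0690 library was high for GRE1 at 6.15 CPM (others 0 to 0.873) and the second for GRX1 at 108 CPM (others 72.0 to 78.0). In starved footprints the first EY0690 library was high for GRE1 at 20.3 CPM (others 2.42 to 4.75) and for PRX1 at 90.8 CPM (others 36.6 to 41.8). All but 1 of the 8 are EY0690 libraries, the strain that stood higher for most of these genes. The exception is GRX1 in BY4741 polyA RNA.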

How the results depend on the processing

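For polyA RNA, 31 of 31 passed under the other scalings, without a filter, with DESeq2, with both regions summed and with the replicate block, 26 with BY4741 alone, 30 with EY0690 alone, and 29 to 31 when 1 library was left out. Footprints passed for 13 genes with library size alone, 21 with DESeq2, 20 with both regions summed and 22 with the block. They passed for 0 of 29 with BY4741 alone (18 at an unadjusted p under 0.05) and 11 to 21 when 1 library was left out, 11 without the first starved library of either strain and 21 without the second starved BY4741 one. The occupancy fall passed for 1 with library size alone, 1 with both regions summed, 1 without both BY4741 footprint libraries numbered 2, 5 with DESeq2, 4 with the replicate block, 5 with EY0690 alone and 0 with BY4741 alone (4 at an unadjusted p under 0.05, edgeR). Leaving out 1 library gave 1 to 7, 7 without the first starved BY4741 footprint library. The genes that follow numbered 4 with DESeq2 size factors, 4 with library size alone, 0 with BY4741 alone, 11 without both libraries numbered 2, and 0 to 9 when 1 library was left out. The start-region share rose for 0 of 28 in a quasi-binomial test, 0 with BY4741 alone and 0 with EY0690 alone (11, 4 and 11 at an unadjusted p under 0.05), and for 2 to 8 when 1 library was left out, 8 without the first glucose BY4741 one. The polyA strain difference passed for 0 to 1 as higher and 0 to 2 as lower when 1 library was left out, and the footprint one for 2 as lower (PNC1 and STF2) without both libraries numbered 2. Apart from the calls of the block given with the results, the block changed no call. Among the genes that follow, the block put OM45 in place of SPI1. No call changed direction in these alternatives. For most of them the share of all genes that passed, at an adjusted or unadjusted p, is not given here. Their counts are therefore not to be read against the shares of the main fits. Library size alone moved the median footprint change of all genes by -0.14 and the footprint strain difference by -0.43. The fits of 1 strain hold 4 or 8 libraries, and the causes of the other moves were not tested. The footprint changes of PAI3, SPG4 and GND2 rest on 12, 14 and 37 counts over the glucose libraries.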
